A study of Mus musculus with 2 samples.

Results

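The genes described here are 10 members of the p53 network, taken as named genes from the 32285 genes of the deposited tables: *Trp53* itself, its negative regulators *Mdm2* and *Mdm4*, and the target genes *Cdkn1a*, *Ccng1*, *Sesn1*, *Sesn2*, *Gtse1*, *Zmat3* and *Phlda3*. They were read in 1 library of testis cells from a control mouse and 1 from a *Brca1* vKO mouse, both at postnatal day 7. Controls in the study were littermates. *Brca1* vKO animals carried 1 floxed and 1 deleted *Brca1* allele and the Vasa-Cre transgene, whose promoter is active in germ cells, so that their somatic cells also carried the deleted allele. The set was selected on measured values of these libraries, the UMIs of *Cdkn1a* in *Brca1* vKO germ cells among them, so the difference between genotypes is given as a description. With 1 library per genotype there is no replicate check and no test between genotypes, and the genotype, the animal and the library cannot be told apart. All intervals are exact 95% intervals and cover counting error only.

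p53, the product of *Trp53*, is a transcription factor that is held at a low level by MDM2, a ubiquitin ligase, and by the related protein MDM4. DNA damage and other stresses stabilise the p53 protein, which then activates genes that stop the cell cycle, repair DNA or lead to cell death. *Mdm2* is itself a target, which closes a negative feedback loop. *Cdkn1a* encodes p21, an inhibitor of cyclin-dependent kinases. BRCA1 acts in the repair of double-strand breaks by homologous recombination.

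The binding sites of p53 in regulatory DNA consist of adjacent copies of a 10-base half-site, and the windows around the annotated starts of the members were searched for it. RefSeq windows of GRCm38.p6, from 250 bases before to 50 bases after a start, were at hand for 9 of 10 members (13 windows), and *Zmat3* had none. A full site means 2 half-sites side by side with at most 1 mismatch in 20 bases. It was found in windows of 3 members, *Cdkn1a*, *Ccng1* and *Gtse1*. Of all 32851 windows 29 held one (0.0883%), which is 0.107% of genes with a window. An exact half-site was found in windows of 6 members, in 8.36% of all windows and in 9.55% of genes with a window. The consensus reads the same on both strands, each full site overlaps an exact half-site, and the mismatch limit was chosen after the sequences had been seen. The 250 bases before the upstream start of *Cdkn1a* (chr17:29090729-29090978, plus strand) and before the start of *Ccng1* (chr11:40755287-40755536, minus strand) are shown because these genes had high UMI counts in the *Brca1* vKO germ cells. Capitals mark exact half-sites and full sites, and a separate exact half-site of *Cdkn1a* lies before its full site.
Cdkn1a: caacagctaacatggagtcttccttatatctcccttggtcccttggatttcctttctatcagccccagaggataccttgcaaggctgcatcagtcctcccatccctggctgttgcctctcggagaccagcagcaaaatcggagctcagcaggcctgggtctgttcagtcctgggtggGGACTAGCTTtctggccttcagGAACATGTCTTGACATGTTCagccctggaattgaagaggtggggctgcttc
Ccng1: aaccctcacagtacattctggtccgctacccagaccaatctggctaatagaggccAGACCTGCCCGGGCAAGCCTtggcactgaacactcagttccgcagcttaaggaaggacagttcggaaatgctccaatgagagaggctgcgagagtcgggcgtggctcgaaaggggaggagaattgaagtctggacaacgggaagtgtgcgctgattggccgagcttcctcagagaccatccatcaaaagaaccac
Gtse1: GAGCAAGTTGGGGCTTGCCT
The site of *Gtse1*, given alone, begins 1 base before the second of its annotated starts. A match is a description of these letters and does not show that p53 was bound. No match in a window says nothing about sites elsewhere in a gene.

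In the GRCm38 annotation of GENCODE, *Trp53* lies at chr11:69580359-69591873, *Mdm2* at chr10:117688875-117710758, *Mdm4* at chr1:132959484-133030561 and *Cdkn1a* at chr17:29090976-29100727. *Ccng1* lies at chr11:40748552-40755311, *Sesn1* at chr10:41809935-41908424 and *Sesn2* at chr4:132492032-132510501. *Gtse1* lies at chr15:85859745-85876573, *Zmat3* at chr3:32334792-32366014 and *Phlda3* at chr1:135766119-135769136. All are protein-coding genes. *Mdm4*, *Cdkn1a*, *Sesn1* and *Sesn2* each overlap another annotated gene, which for *Sesn2* and *Sesn1* lies on the same strand.

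The control table held 5812 barcodes and 120568700 UMIs (transcript molecules) and that of *Brca1* vKO held 9456 barcodes and 165062097 UMIs, of which 5077 and 8712 cells passed the study's limits on genes and mitochondrial UMIs. The libraries shared 21 barcodes. Germ cells were gated by the summed UMIs of *Ddx4* and *Dazl*, and 921 control and 252 *Brca1* vKO cells remained once 117 and 18 barcodes that also met a somatic gate had been set aside as mixed. Of germ cells with at least 10000 UMIs, those with more *Gfra1* and *Ret* than *Kit* and *Stra8* UMIs were called GFRA1-type (340 control, 187 *Brca1* vKO) and the reverse KIT-type (234 and 16). *Gfra1* and *Ret* encode the receptors of undifferentiated spermatogonia for the niche factor GDNF, while *Kit* and *Stra8* mark differentiating spermatogonia. *Ddx4* and *Dazl* summed to 1498 and 1426 CPM (UMIs of a gene per 1000000 UMIs of the same cells) in the GFRA1-type cells of the control and *Brca1* vKO libraries. *Brca1* was at 70.7 CPM in control and 43.9 in *Brca1* vKO GFRA1-type cells (ratio 0.620, 0.547 to 0.702). It had a ratio of 0.859 (0.807 to 0.914) in Sertoli cells and of 0.585 (0.490 to 0.699) in stromal cells. The tables do not say where in the gene a UMI lies, so transcripts of a deleted allele can be included.

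*Cdkn1a*, the main p53 target in cell cycle arrest, had 227 UMIs in GFRA1-type cells of the control and 1049 in those of the mutant. Its level was 13.9 CPM (12.1 to 15.8) against 142 CPM (134 to 151) in *Brca1* vKO, which gives a ratio of 10.2 (8.86 to 11.9). Among the 94 and 41 of these cells with at most 5% mitochondrial UMIs the ratio was 6.08. *Ccng1* encodes cyclin G1, which takes part in feedback on p53, and *Phlda3* an inhibitor of AKT signalling. *Ccng1* stood at 43.5 CPM (40.3 to 46.8) against 234 (223 to 246), a ratio of 5.39 (4.94 to 5.89). *Phlda3* stood at 5.81 CPM (4.70 to 7.10) against 30.2 (26.4 to 34.4), a ratio of 5.20 (4.07 to 6.68). On the log2 scale this is 2.38, and it was 3.47 in cells thinned to 10000 UMIs, where *Phlda3* was seen in 10 control cells. The intervals of the libraries did not overlap for these 3 genes, but the share of all genes without such overlap was not counted. Of the 13215 genes with at least 50 UMIs, *Cdkn1a* ranked 21st, *Ccng1* 49th and *Phlda3* 52nd by this ratio. As the set was chosen with these values known, nothing is read from the ranks of members.

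*Zmat3*, an RNA-binding protein of the p53 response, and *Gtse1*, a microtubule-associated protein of G2 that restrains p53, had smaller ratios. *Zmat3* was measured at 4.83 CPM (3.82 to 6.02) in control and 10.4 CPM (8.23 to 13.03) in *Brca1* vKO GFRA1-type cells, a ratio of 2.16 (1.56 to 2.99). In cells thinned to 2000 UMIs the log2 ratio of *Zmat3* turned to -1.46. *Gtse1* was measured at 17.8 CPM (15.8 to 19.95) and 34.8 CPM (30.7 to 39.3), a ratio of 1.96 (1.65 to 2.32). They ranked 390th and 526th. Their intervals also did not overlap between the libraries, nor did those of *Trp53*, *Mdm2*, *Mdm4* and *Sesn1*. The share of all genes without such overlap was not counted, so nothing is read from it for any member.

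The 4 members *Trp53*, *Mdm2*, *Mdm4* and *Sesn2* were modestly higher in the *Brca1* vKO library. *Trp53* was at 60.5 CPM (56.7 to 64.3) in control and 82.3 CPM (75.9 to 89.1) in *Brca1* vKO cells, a ratio of 1.36 (1.23 to 1.51). The p53 protein is controlled largely by its stability, which transcript counts do not show. *Mdm2* had a ratio of 1.32 (1.22 to 1.44), from 94.0 to 124 CPM. *Mdm4* had a ratio of 1.37 (1.27 to 1.48), from 104 to 142 CPM. *Sesn2*, a stress-responsive inhibitor of mTORC1 signalling, had a ratio of 1.35 (1.06 to 1.72), from 11.1 to 15.03 CPM. In cells thinned to 2000 UMIs its log2 ratio turned to -0.031. The intervals of these ratios lay above 1 and none of the 4 ratios reached 1.5-fold. The related *Sesn1* went the other way, at 83.3 CPM (78.9 to 87.8) in control and 61.3 CPM (55.8 to 67.3) in *Brca1* vKO cells, a ratio of 0.737 (0.661 to 0.820).

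**Figure D1:**
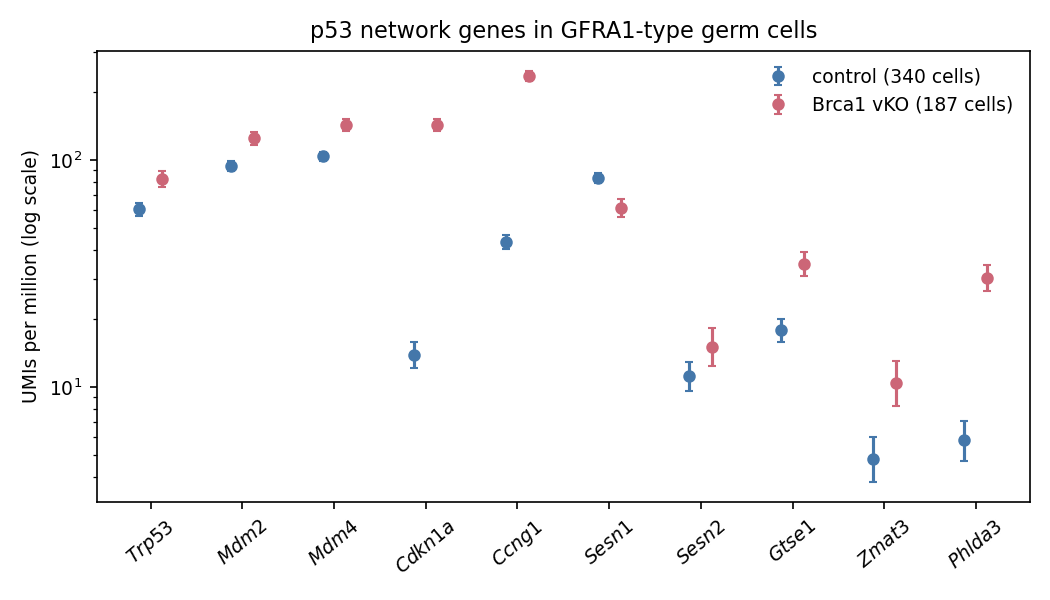
CPM of the 10 genes in GFRA1-type germ cells (y axis, log scale), with 340 control cells in blue and 187 *Brca1* vKO cells in red. Points are sums over cells of 1 library and bars are exact 95% Poisson intervals. *Cdkn1a* lies at 13.9 and 142, and *Sesn1* is the only gene with the control point above.

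Counted at 1.5-fold, 5 of 10 members were higher in the *Brca1* vKO GFRA1-type cells, among 11.9% of the 17343 genes with at least 10 UMIs and 8.62% of those with at least 50. None was lower, while 18.5% of the genes were. All 10 members passed the minimum. The median log2 ratio was 0.71 over the members and -0.04 over all genes tested. Because the set was chosen with these values known, nothing is read from the counts or the medians.

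The number of UMIs in single cells was compared after each cell had been thinned to 10000 UMIs, which kept every GFRA1-type cell of both libraries. At least 1 *Cdkn1a* UMI was then present in 32 of 340 control cells (9.41%, 6.53 to 13.03) and in 117 of 187 *Brca1* vKO cells (62.6%, 55.2 to 69.5). Before thinning these shares were 25.3% and 88.2%. A *Ccng1* UMI was present in 27.1% and 80.2% of the thinned cells. *Phlda3* was seen in 10 control cells (2.94%) and 51 *Brca1* vKO cells (27.3%). *Mdm2* differed less, with a UMI in 55.3% and 63.6% of cells. The higher sums of *Cdkn1a* were therefore spread over many cells: 49 *Brca1* vKO cells had 1 UMI, 29 had 2, 15 had 3 and 24 had 4 or more. In the control 27 cells had 1 UMI and 5 had more, and 1 unthinned control cell held 35 of the 227 *Cdkn1a* UMIs.

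**Figure D2:**
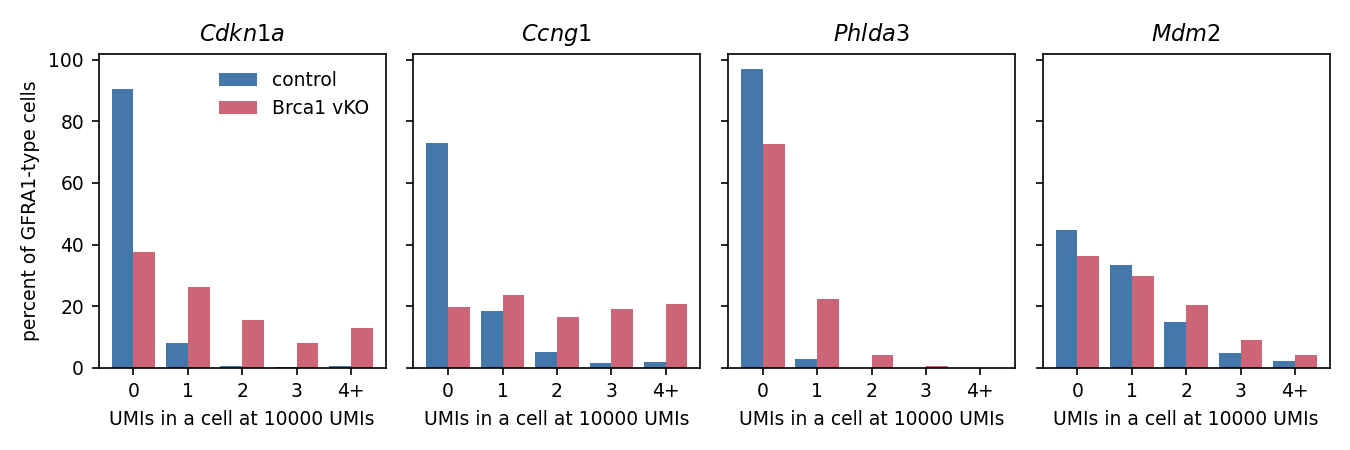
Percent of GFRA1-type germ cells (y axis) with 0, 1, 2, 3 or at least 4 UMIs of the gene after thinning to 10000 UMIs per cell (x axis), in 340 control (blue) and 187 *Brca1* vKO cells (red). No *Cdkn1a* UMI was seen in 90.6% of control and 37.4% of *Brca1* vKO cells, while the *Mdm2* bars of the libraries are similar.

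*Cdkn1a* and *Ccng1* were both seen in 96 of 187 *Brca1* vKO cells (51.3%, 43.9 to 58.7) and in 10 of 340 control cells (2.94%, 1.42 to 5.34). Neither was seen in 16 *Brca1* vKO cells (8.56%) and in 226 control cells (66.5%). Within the *Brca1* vKO library, a *Ccng1* UMI was seen in 82.1% (73.9 to 88.5) of cells with a *Cdkn1a* UMI. In cells without one the share was 77.1% (65.6 to 86.3), so the intervals overlapped and the shared cells largely follow from the frequency of each gene. Of the 5 targets *Cdkn1a*, *Ccng1*, *Phlda3*, *Mdm2* and *Zmat3*, the median number with a UMI was 2 in a *Brca1* vKO cell and 1 in a control cell. At least 1 of the 5 was found in all but 6 *Brca1* vKO cells and in all but 98 control cells.

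Whether the targets go together in the same cells was asked within the *Brca1* vKO library, where the 117 cells with a *Cdkn1a* UMI at 10000 UMIs were compared with the 70 cells without. The groups had similar depth before thinning (medians of 36505 and 36859.5 UMIs). *Ccng1* had a mean of 2.52 UMIs per cell in the *Cdkn1a*-positive and 1.81 in the negative cells, a ratio of 1.39 (1.12 to 1.72). In cells with 0, 1, 2 and at least 3 *Cdkn1a* UMIs its mean was 1.81, 2.16, 2.21 and 3.21 UMIs. *Phlda3* did not keep such an order, with means of 0.229, 0.408, 0.552 and 0.231 UMIs, nor did *Mdm2*, with 1.17, 1.06, 0.931 and 1.56. For *Ccng1*, the *Brca1* vKO cells without a *Cdkn1a* UMI lay above the 0.393 UMIs of the corresponding control cells. Spearman's rho of *Ccng1* with *Cdkn1a* was 0.20 over the 187 cells of 1 library, and it was at most 0.17 for every other member. Such low values in sparse counts are given only as a description.

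At 1.5-fold, 4 of the 9 other members were higher in the *Cdkn1a*-positive *Brca1* vKO cells, against 9.62% of the genes tested there. *Sesn2* had a ratio of 2.14 (0.898 to 5.85), *Phlda3* of 1.68 (0.933 to 3.19), *Zmat3* of 1.56 (0.520 to 5.57) and *Gtse1* of 1.51 (0.845 to 2.83). Every one of these intervals includes 1. *Mdm4* had a ratio of 1.39 (1.06 to 1.83) and *Mdm2* of 1.02 (0.772 to 1.36). *Trp53* (0.865, 0.624 to 1.21) and *Sesn1* (1.04, 0.702 to 1.56) did not separate the cells at this depth.

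The ratios depended on which 10000 UMIs were drawn, with *Cdkn1a* at a mean of 1.45 UMIs per *Brca1* vKO cell. Over 20 draws the number of members past 1.5-fold ran from 1 to 5, with a median of 3. *Ccng1* was higher in the *Cdkn1a*-positive cells in every draw, with ratios of 1.12 to 1.61. *Phlda3* reached 1.5-fold in 16 draws, *Gtse1* in 16 and *Zmat3* in 14. *Sesn2* did so in 3 and had ratios from 0.300 to 2.59, and *Mdm2* in 2. *Mdm4* did so in no draw, with ratios from 0.869 to 1.44 and a median of 1.07, so its first draw lay near the top of its range. Without thinning, when 165 cells were positive and 22 negative, *Ccng1*, *Gtse1*, *Zmat3* and *Phlda3* were past 1.5-fold. All draws were taken from the same cells of 1 library, so they are not repeats of the comparison. The share of all genes past 1.5-fold was not counted over the draws or without thinning. Nothing is therefore read from the numbers of members or draws.

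**Figure D3:**
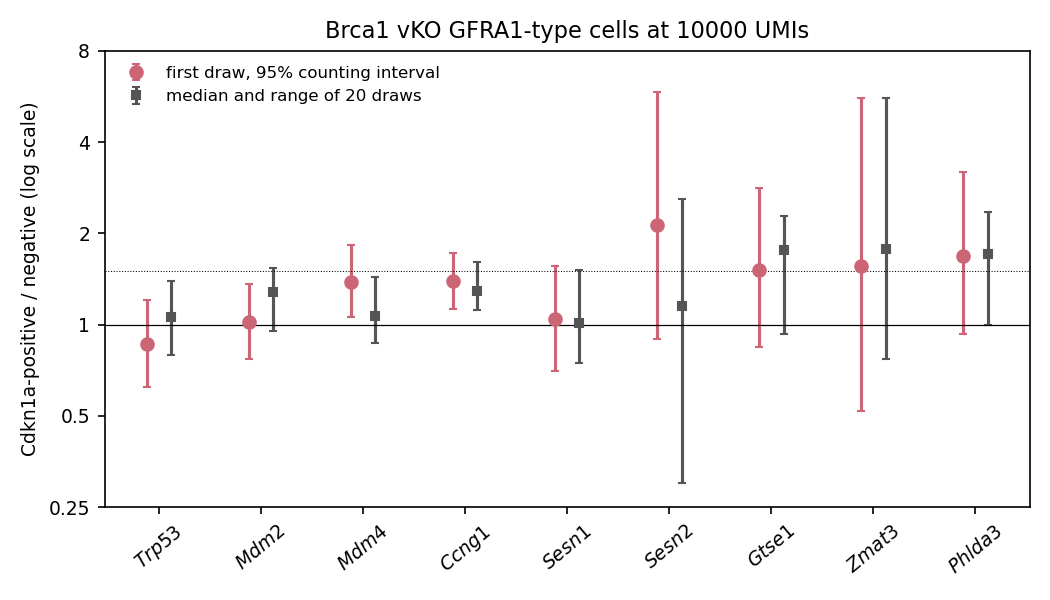
Ratio of the mean UMIs per cell between *Cdkn1a*-positive and *Cdkn1a*-negative *Brca1* vKO GFRA1-type cells at 10000 UMIs (y axis, log scale) for the 9 other genes. Red points are the first draw with exact 95% intervals and grey squares the median and range of 20 draws; the dotted line marks 1.5, and only *Ccng1* and *Mdm4* have first-draw intervals above 1.

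In the control library 32 GFRA1-type cells were *Cdkn1a*-positive and 308 negative, with median depths of 57231.5 and 44097 UMIs. Here *Ccng1* (1.59), *Zmat3* (2.26) and *Phlda3* (4.13) were past 1.5-fold, 3 of 9 members against 13% of the genes tested, and their intervals all included 1. *Phlda3* rested on 3 UMIs in the positive and 7 in the negative cells.

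**Figure D4:**
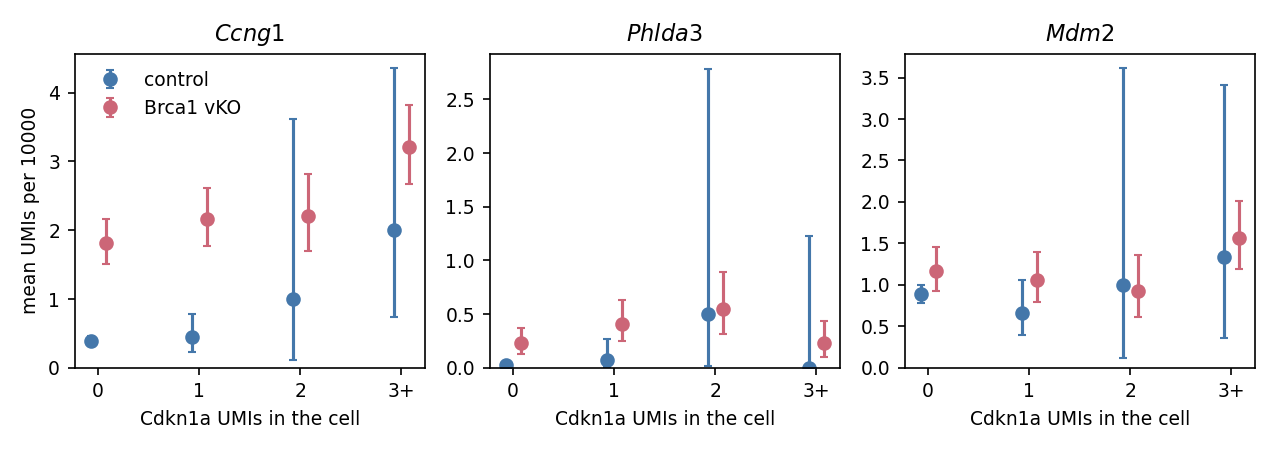
Mean UMIs of *Ccng1*, *Phlda3* and *Mdm2* per GFRA1-type cell thinned to 10000 UMIs (y axis) by the number of *Cdkn1a* UMIs in the same cell (x axis), in the control (blue) and *Brca1* vKO library (red), with exact 95% Poisson intervals. *Ccng1* in *Brca1* vKO cells goes from 1.81 to 3.21, and the control bins of 2 and of at least 3 UMIs hold 2 and 3 cells.

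By the rule for leading genes, those with the largest ratios in *Cdkn1a*-positive *Brca1* vKO cells were *Gde1* (2.73), *Cltb* (2.69), *Galnt2* (2.63) and *Rexo4* (2.62). Their ratios between the libraries lay between 0.943 and 1.14. Within 6173 genes with at least 50 UMIs in these cells, *Ccng1* ranked 353rd.

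The KIT-type cells had *Cdkn1a* at the top as well. It was at 9.63 CPM in 234 control and 204 CPM in 16 *Brca1* vKO cells, a ratio of 21.2 (16.4 to 27.6). *Zmat3* had a ratio of 7.85 (3.47 to 16.7) from 24 and 11 UMIs, *Ccng1* of 4.49 (3.92 to 5.12) and *Sesn2* of 2.93 (1.70 to 4.80). *Gtse1* (2.44), *Phlda3* (2.33), *Mdm2* (2.08) and *Mdm4* (1.61) were also above 1.5, while *Trp53* was at 1.40 and *Sesn1* at 0.868. The share of all genes past 1.5-fold was not counted in KIT-type cells, so nothing is read from the number of members. The 16 cells still carried *Gfra1* and *Ret* at 195 CPM, against 31.4 in the control KIT-type cells, so by these markers the groups differed in stage.

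The control library shows how the members differ by stage without the deletion. *Phlda3* was 4.25 times (3.35 to 5.42) and *Ccng1* 2.20 times (2.003 to 2.43) as high in KIT-type as in GFRA1-type control cells. *Sesn1* (0.461), *Zmat3* (0.439) and *Cdkn1a* (0.694) were lower there. In the *Brca1* vKO library the same quotient was 1.44 (1.19 to 1.72) for *Cdkn1a* and 1.91 (1.31 to 2.70) for *Phlda3*. Germ cells under 10000 UMIs, of which the control held 294 and *Brca1* vKO 42, had ratios between the libraries of 10.0 for *Cdkn1a*, 6.35 for *Phlda3* and 2.66 for *Ccng1*, all with intervals above 1.

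The Sertoli, stromal and myoid cells are the somatic classes with the most cells. In Sertoli cells (2332 control, 4504 *Brca1* vKO), which nurse the germ cells, *Cdkn1a* was at 2.58 and 4.09 CPM, a ratio of 1.59 (1.31 to 1.94). That ratio was 1.38 in cells thinned to 10000 UMIs, 0.981 in cells thinned to 2000 and 3.32 with at most 5% mitochondrial UMIs. *Cdkn1a* was the 1 member of 10 past 1.5-fold there, against 7.81% of genes, and none was lower, against 7.31%. In stromal cells *Cdkn1a* had a ratio of 1.25 (1.08 to 1.45) and in peritubular myoid cells of 1.38 (1.09 to 1.75). No member was past 1.5-fold in stromal cells (7.13% of genes higher, 6.92% lower) or in myoid cells (8.99% and 6.22%). Other settings moved some ratios past it. Thinned to 10000 UMIs, *Cdkn1a* was at 1.67 in stromal and *Gtse1* at 1.85 in myoid cells. With cells of over 2 times the median UMIs left out, *Cdkn1a* was at 1.6 in myoid and 1.41 in Sertoli cells. Thinned to 2000 UMIs, *Sesn2* was at 1.66 and *Phlda3* at 0.626 in myoid cells. By the mean over cells, *Gtse1* was at 0.529 in stromal cells. *Ccng1* was at 17.6 and 15.2 CPM in Sertoli cells (ratio 0.865), at 22.6 and 22.1 in stromal and at 16.8 and 16.9 in myoid cells. *Phlda3* was lower in the *Brca1* vKO library in Sertoli cells (0.768, 0.718 to 0.820) and stromal cells (0.837, 0.775 to 0.904). *Sesn1* had nearly the same ratio in Sertoli cells (0.743, 0.714 to 0.772) as in GFRA1-type cells, and was at 1.07 in stromal and 1.03 in myoid cells.

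**Figure D5:**
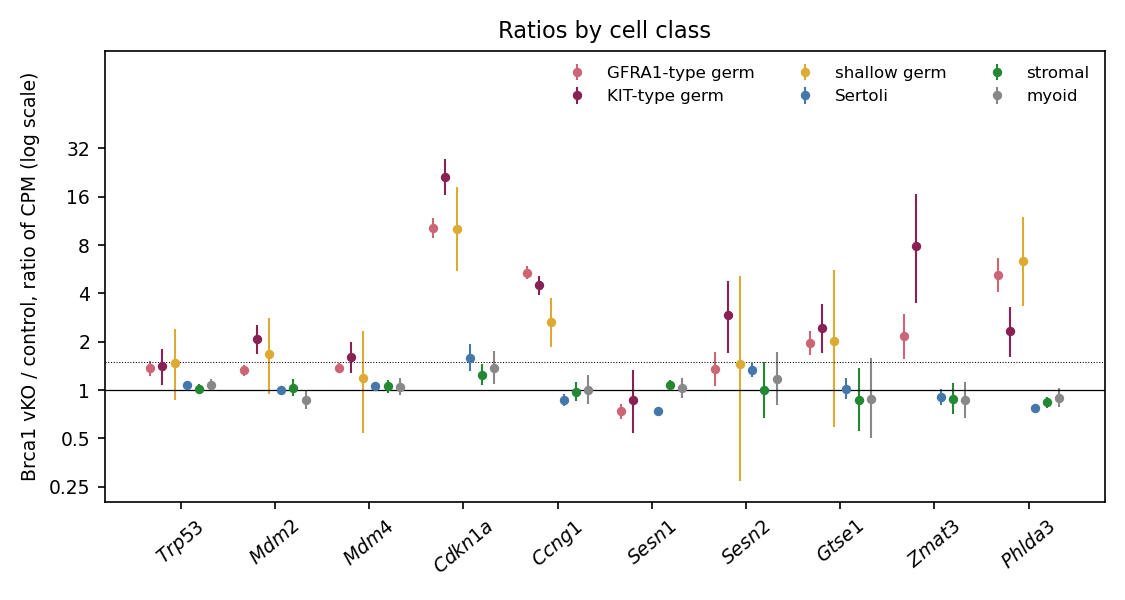
Ratio of CPM between the *Brca1* vKO and the control library (y axis, log scale) for the 10 genes in 3 germ cell and 3 somatic classes (colours), with exact 95% intervals; the dotted line marks 1.5. Genes with under 3 UMIs in either library are left out of a class. The germ cell points of *Cdkn1a* and *Ccng1* lie above all somatic points of the same gene.

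Levels were ordered over 10 classes, without the neutrophils and the deep germ cells of neither sub-type, which had 3 and 7 cells in 1 of the libraries. *Cdkn1a* was highest in macrophages of both libraries, at 820 CPM (746 to 899) in control and 720 CPM (658 to 786) in *Brca1* vKO mice. In the control the next classes, Leydig, endothelial, pericyte and stromal cells and germ cells under 10000 UMIs, lay between 17.8 and 27.0 CPM with intervals that overlapped from one to the next. GFRA1-type cells followed at 13.9 and Sertoli cells were lowest. In the *Brca1* vKO library the KIT-type (204), shallow (178) and GFRA1-type germ cells (142) came next after the macrophages. Their intervals overlapped from one to the next, but those of KIT-type (171 to 242) and GFRA1-type cells (134 to 151) did not overlap each other. Then came the pericytes at 89.1 CPM (62.1 to 124). The pericytes were at 20.8 CPM in the control (ratio 4.29, 2.08 to 9.72), from 44 and 47 cells. In Leydig cells, from 31 and 63 cells, *Cdkn1a* was at 27.0 and 7.72 CPM, a ratio of 0.286 (0.123 to 0.633). Macrophages also differed in *Mdm2*, at 316 and 134 CPM (0.424, 0.326 to 0.549), from 21 and 38 cells, and 1 control macrophage held 64 of the 174 *Mdm2* UMIs. *Ccng1* was highest in the germ cell classes of both libraries.

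Over the 20 sums of class and library with enough cells, the genes most like *Cdkn1a* in their order of levels were *Cd68*, *Abcc3*, *Slc35e4*, *Trafd1* and *Klf10* (Spearman's rho from 0.752 to 0.815). The points share 2 libraries. *Cd68* is a macrophage gene, and the closest members were *Mdm2* at 0.484 and *Ccng1* at 0.481.

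RNA of other cells was measured in the same GFRA1-type cells. Marker sums of Sertoli cells stood at 232 CPM in control and 329 CPM in *Brca1* vKO cells, of stromal cells at 81.8 and 149, and of myoid cells at 63.1 and 104. Macrophage markers stood at 11.0 and 19.1 CPM, with 1 of 8 markers at 0 in the control and none in the *Brca1* vKO library, neutrophil markers at 1.65 and 21.1, and pericyte markers at 2.93 and 11.5. Endothelial markers stood at 54.5 and 93.0, Leydig markers at 6.36 and 8.26 and red blood cell genes at 290.2 and 41.0. If every such marker UMI of the 8 somatic classes had brought that class's own share of *Cdkn1a*, this would amount to 1.31 CPM in control and 2.37 CPM in *Brca1* vKO cells, against the 13.9 and 142 CPM measured. The same sum for *Ccng1* was 0.801 and 1.29 CPM and for *Phlda3* 1.63 and 2.74 CPM. RNA from other germ cells was not included in these sums. The part of carried-over RNA in the difference between the libraries was not tested.

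Genes that respond to tissue dissociation also differed. In the *Brca1* vKO GFRA1-type cells 11 of 20 were higher by 1.5-fold and 2 lower, against 11.9% and 18.5% of all genes tested. The list was chosen with earlier results of these data known, so nothing is read from these counts. The sum of the 20 genes was 1296 CPM in control against 2039 CPM in *Brca1* vKO cells. Among them were the immediate early genes *Junb* (47.3 and 127 CPM), *Egr1* (163 and 263) and *Ier2* (58.4 and 129), and *Btg2*, which is also a p53 target. In thinned cells with at most 11 UMIs of these genes, the control median, *Btg2* left out, *Cdkn1a* had a ratio of 9.83 (5.76 to 17.3) from 180 and 41 cells. In the cells above that median it had a ratio of 9.86 (6.51 to 15.6). *Ccng1* had ratios of 5.70 and 6.27 and *Phlda3* of 17.6 and 8.22 on the 2 sides. The part of these genes in the difference between the libraries was not tested further.

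Cells with a UMI of the proliferation genes *Mki67* or *Top2a* made up 82.1% of control and 84.0% of *Brca1* vKO GFRA1-type cells at 10000 UMIs. *Cdkn1a* had a ratio of 9.39 (6.73 to 13.4) in these cells and of 25.4 (9.33 to 96.9) in the cells without, where the control held 4 UMIs. *Ccng1* had ratios of 5.09 (4.14 to 6.29) and 8.01 (4.65 to 14.6). Within the *Brca1* vKO library *Cdkn1a* averaged 1.41 UMIs in cells with and 1.67 in cells without a proliferation UMI.

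The wider pathway was described with lists of related genes. These lists were chosen with earlier results of these data known, so nothing is read from their counts or medians. For all genes tested in these cells, 11.9% were higher and 18.5% lower by 1.5-fold. Of 18 regulators of p53 measured, 1 was higher by 1.5-fold (*Trp73*, 0.917 and 1.90 CPM, from 15 and 14 UMIs) and 1 lower (*Trp63*, from 8 and 2 UMIs). The intervals of their ratios, 0.925 to 4.59 and 0.0573 to 2.78, both include 1. The median log2 ratio of the list was -0.12. *Trp73* and *Trp63* are family members of *Trp53*. The checkpoint kinases *Atm*, *Atr*, *Chek1* and *Chek2* had ratios of 0.913, 1.02, 1.14 and 0.859. The acetyltransferase *Ep300* was at 0.912, and *Ppm1d* and *Rchy1*, which restrain p53, were both at 1.29.

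Of 14 other p53 targets linked to cell death, 9 were higher and none lower, against 11.9% and 18.5% of all genes tested. Their median log2 ratio was 0.86. Nothing is read from these values, because the list was chosen with earlier results of these data known. *Perp*, 1 of the 9 and named after its values were seen, had only 5 UMIs in each library. *Pmaip1*, which encodes the BH3-only protein NOXA, stood at 43.0 and 121 CPM (2.81, 2.54 to 3.10). *Aen*, an apoptosis-enhancing nuclease, stood at 46.2 and 89.1 CPM, and *Ei24* and *Trp53inp1* had ratios of 1.71 and 1.66. *Bbc3*, which encodes PUMA and was named after its value was seen, had the highest ratio of the list at 12.1. *Bax* had a ratio of 1.47, short of 1.5-fold.

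Of 27 targets linked to arrest, repair or metabolism, 10 were higher and 1 lower, against 11.9% and 18.5% of all genes tested. Their median log2 ratio was 0.27. Nothing is read from these values for the same reason as in the list of death genes. *Btg2*, an antiproliferative gene, stood at 82.5 and 227 CPM (2.75, 2.56 to 2.96). *Polk*, a translesion DNA polymerase, had a ratio of 1.63 and *Rap2b*, a small GTPase, of 1.54. *Tnfaip8* was the lower gene (0.665, 0.554 to 0.795). The repair genes *Xpc* and *Ddb2* had ratios of 0.775 and 1.06 and *Gadd45a* of 1.19.

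Among 18 partners of p21 and G1/S regulators, 3 were higher and 2 lower, shares near those of all genes. *Ccnd2* was at 245 and 601 CPM (2.45) and *Ccnd1* at 92.4 and 159 CPM (1.73); both encode D-type cyclins, which drive cells through G1. The lower genes were *Cdk6* (28.8 and 5.69 CPM, 0.198), a kinase partner of these cyclins, and *Cdkn1c* (60.4 and 26.5 CPM, 0.439), which encodes the p21-related inhibitor p57. In the S phase list 2 of 15 were higher, again near the share of all genes, *Rrm2* (2.08) and *Uhrf1* (1.999), and in the G2/M list none of 20 was past 1.5-fold in either direction.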

How the data were processed

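Single-cell suspensions of the testes of control and *Brca1* vKO mice were made with collagenase IV and TrypLE and captured on the 10x Genomics platform, and more cells were loaded for *Brca1* vKO. The deposited values are counts of UMIs per gene and cell that the authors made with Cell Ranger 6.0.2 against mm10; they were not normalized. The submitters' processing notes also name R 4.2.3 and Seurat 4.3.0.1 for later steps, which were not used here. Cell types were assigned anew.

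As in the study, the limits were 750 genes or more and 10% mitochondrial UMIs or less. Classes were gated by summed marker UMIs per 10000, with minimums set after the marker sums had been seen: 4 for germ cells (and at least 2 UMIs), 16 for stromal cells, endothelial cells and pericytes, 32 for Sertoli, myoid and Leydig cells and macrophages, and 64 for neutrophils. Between 2 and 8 per 10000, near the germ cell gate, lay 79 control and 23 *Brca1* vKO cells. Barcodes that met 2 gates were left out as mixed, and no doublet caller was run. A sub-type needed at least 2 UMIs of its markers.

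UMIs were summed per class and library and given per 1000000 UMIs (CPM). Sums have exact Poisson, shares exact Clopper-Pearson and ratios exact conditional intervals (scipy 1.17.1, numpy 2.4.6, Python 3.11.15). A gene counted as tested from 10 UMIs over both libraries. The intervals take UMIs as independent, although cells differ, and are too narrow for a comparison of animals. Cells were thinned at random to 10000 UMIs. TMM factors came from edgeR 4.0.16 in R 4.3.3, for scaling only. Ratios, calls and thinning were tested on simulated data.

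The members and lists were chosen with earlier results of these data known. The text names the 10 members, up to 4 genes of each list past 1.5-fold with the most UMIs in GFRA1-type cells, the 5 genes most like *Cdkn1a* over class sums and the 5 leading genes of *Cdkn1a*-positive cells, of which 1 is not reported here. Other list genes given with a ratio were named after their values were seen.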

Additional observations from a re-analysis of the deposited data

Results flagged for a closer look

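For 4 members the ratio between the *Brca1* vKO and the control library lay above 1 with its interval in GFRA1-type germ cells and below 1 with its interval in a somatic class. *Phlda3* had a ratio of 5.20 in the germ cells, 0.768 in Sertoli cells and 0.837 in stromal cells. *Ccng1* had a ratio of 5.39 in the germ cells and 0.865 in Sertoli cells. *Mdm2* had a ratio of 1.32 in the germ cells, 0.865 in myoid cells and 0.424 in macrophages, where 1 control cell held 64 of 174 UMIs. *Cdkn1a* had a ratio of 10.2 in the germ cells, 0.286 in Leydig cells and 0.878 in macrophages. Any somatic class could meet this rule, and the share of all genes that meet it was not counted, so nothing is read from the number of members. With 1 library per genotype the difference between the cell classes was not tested.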

How the results depend on the processing

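The log2 ratio of *Cdkn1a* in GFRA1-type germ cells was 3.36. It lay at 2.60 with at most 5% mitochondrial UMIs, which left 94 control and 41 *Brca1* vKO cells, and at 3.60 with cells thinned to 2000 UMIs, and its direction held under each of 11 other ways of choosing, scaling or thinning the cells. Between 4 and 6 members were higher past the fold in these cells. The lowest number, 4, came at a fold of 2, where 6.06% of all genes tested were higher. The highest, 6, came with at most 5% mitochondrial UMIs (12.6% of genes higher, 17.1% lower) and when thinned to 2000 UMIs (14.0% and 17.3%). As the set was chosen with these values known, nothing is read from these numbers. With at most 5% mitochondrial UMIs or thinned to 2000 UMIs, *Mdm4* was also higher and *Sesn1* lower by 1.5-fold, and at 2000 UMIs *Trp53* was higher and *Zmat3* no longer so. Of the 30 member ratios in Sertoli, stromal and myoid cells, 1 was past the fold. The number was 3 when thinned to 2000 UMIs, 2 when thinned to 10000 UMIs and 2 by the mean over cells. The cause was not tested. Under these other settings the share of all genes was not counted in the somatic classes, so nothing is read from the numbers. In *Cdkn1a*-positive *Brca1* vKO cells 4 members were past the fold, against 9.62% of the genes tested there. The number was 1 when thinned to 5000 UMIs, 1 when positive meant at least 2 UMIs, 1 at a fold of 2 and 1 in the lowest of 20 draws. For these other settings the share of all genes was not counted. A split by genes of dissociation stress, chosen after seeing the data, gave 3.30 and 5 members in the cells low in these genes. There *Trp53* (ratio 1.56) was past the fold and *Zmat3* (1.46, from 12 and 4 UMIs) was not. *Sesn2* had a ratio of 0.470 there, from 28 and 3 UMIs. The share of all genes was not counted in this split. For the other 9 members, 99 ratios were taken under the 11 other ways, without the split. Of these, 87 stayed within the interval of the reported ratio, 10 left it and 2 changed direction. Both changes came when thinned to 2000 UMIs: *Sesn2* at -0.031 and *Zmat3* at -1.46. No paired analysis was possible because each group held 1 library.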
